A study of Homo sapiens with 6 samples.

Results

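The genes described here belong to the Notch pathway of H1299 cells. They are the receptors NOTCH1, NOTCH2 and NOTCH3, the ligands JAG1, JAG2 and DLL1, the receptor-modifying enzyme LFNG and the target genes HES1, HEY1 and NRARP. The 10 genes were taken by symbol from a table of 26255 genes, and each symbol was found in it. Messenger RNA was measured by sequencing of total RNA in 6 libraries, 3 of cells with a control shRNA (shControl) and 3 of cells with an Ephexin1 shRNA (shEphexin1), to ask which mRNAs differ when Ephexin1 is depleted. Ephexin1, listed as NGEF, is a guanine nucleotide exchange factor.

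NCI-H1299 is an established line of human non-small cell lung cancer. In both groups the shRNA was expressed from a pSilencer2.1-U6 plasmid, in which a U6 promoter drives the hairpin. The labels name a neo vector, while the study's methods describe hygro vectors and stably selected clones. Cells of both groups were grown in RPMI-1640 with fetal bovine serum, and no other treatment separated them. The library names of shEphexin1 have a common stem, which leaves the possibility that all 3 were made from 1 clone, and the labels do not say whether any libraries came from separate cultures. The p-values therefore measure the spread between these libraries, which may be technical. A difference between a control line and a knockdown line cannot be told apart from a difference between selected cell lines.

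Notch receptors are cleaved by furin on their way to the surface and form contacts with ligands of the Jagged and Delta-like families on neighbouring cells. Ligand binding exposes the receptor to the protease ADAM17 or ADAM10 and then to gamma-secretase, which releases the intracellular domain. In the nucleus this domain joins the DNA-binding protein RBPJ and a Mastermind-like protein, displaces corepressors and switches on genes such as HES1, HEY1 and NRARP. In the lung, Notch signalling is known for directing airway epithelial cells between secretory, ciliated and neuroendocrine fates.

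The values are FPKM, fragment counts scaled by transcript length and library size, so levels can be compared between genes per length, but the read counts behind them are unknown. Between 16958 and 17509 genes were above 0 in each library. Replicate 2 of both groups stood apart from the other libraries. Its deviations from the mean of its own group fell with GC content across genes (Spearman rho of -0.687 in shControl and -0.758 in shEphexin1). Those of the other 4 libraries rose with it (0.335 to 0.663). Deviations cancel within a group, so these opposite signs depend on each other. The mRNA of NGEF measured 13.3, 11.7 and 16.4 FPKM in replicates 1, 2 and 3 of shControl, against 9.81, 8.25 and 10.5 FPKM in those of shEphexin1, and the log2 fold change was -0.53 (adjusted p 0.103). NGEF did not overlap between the groups, but the targeted mRNA did not pass the test. The paper reports that its stable knockdown clones, H1299 among them, were verified by western blot, a measure of protein. The markers VIM (1979 to 2670 FPKM) and CDH2 (11.03 to 15.8 FPKM) were expressed in all libraries, and the keratins KRT18 (36.3 to 109 FPKM) and KRT8 (2.65 to 8.44 FPKM) were lower in every shEphexin1 library than in every shControl library, at log2 fold changes of -0.94 and -1.07. The part of this shift in the Notch values was not tested. KRT19 and EPCAM did not exceed 0.220 FPKM. CDH1, NKX2-1 and the leukocyte genes PTPRC and CD3E were listed at 0 in all 6 libraries, and the endothelial and liver genes PECAM1, CDH5 and ALB did not exceed 0.276 FPKM.

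The sequences before the start sites of JAG2 and NOTCH1, the members with a called difference, and of HES1, the classical target of the pathway, are shown because RBPJ acts at promoters. They come from the RefSeq promoter table on GRCh38.p14, are read 5′ to 3′ on the strand of the gene, and end where the transcript starts in RefSeq (HES1 and NOTCH1) or where the GENCODE gene starts (JAG2). The same letters were found on GRCh37 at chr3:193853687-193853936 on the plus strand for HES1, at chr14:105635162-105635363 on the minus strand for JAG2 and at chr9:139440501-139440750 on the minus strand for NOTCH1. Capitals mark the letters GTGGGAA, a form of the core that RBPJ is known to bind, and other forms were not marked.
HES1: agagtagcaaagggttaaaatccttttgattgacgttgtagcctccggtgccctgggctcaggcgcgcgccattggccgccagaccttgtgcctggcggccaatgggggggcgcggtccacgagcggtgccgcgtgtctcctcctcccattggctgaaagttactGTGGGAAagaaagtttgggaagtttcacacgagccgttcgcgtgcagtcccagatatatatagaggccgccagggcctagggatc
JAG2: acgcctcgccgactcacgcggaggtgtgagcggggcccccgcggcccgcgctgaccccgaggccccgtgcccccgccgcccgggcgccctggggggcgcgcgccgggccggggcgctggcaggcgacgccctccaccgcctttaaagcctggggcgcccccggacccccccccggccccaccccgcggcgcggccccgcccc
NOTCH1: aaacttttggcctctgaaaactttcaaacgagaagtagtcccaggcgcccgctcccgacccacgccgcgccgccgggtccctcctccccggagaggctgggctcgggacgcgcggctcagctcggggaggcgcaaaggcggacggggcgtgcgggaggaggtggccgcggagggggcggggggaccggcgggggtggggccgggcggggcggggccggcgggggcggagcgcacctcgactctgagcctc

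The GC content of the stretches shown was 59.2% for HES1, 86.1% for JAG2 and 76.0% for NOTCH1. Of the 10 members, 8 had an entry in the promoter table, with 300 bases each, and DLL1 and HEY1 had none. GTGGGAA on either strand was present in 1 of these 8 entries, that of HES1, where it begins 85 bases before the start. Of all 27305 promoters of the same length, 1715 (6.28%) held it. The variant GTGAGAA was present in 0 of the 8 entries and in 1229 (4.5%) of all promoters. No other form of the core was searched, so further sites in these stretches are possible. Both motifs were chosen after values of these genes had been seen, they do not overlap each other, and a match of letters is no evidence of binding.

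JAG2 and NOTCH1 mRNA rose in shEphexin1, and no other member passed both thresholds. The 10 members reached 0.1 FPKM in 3 or more libraries, the filter that 16020 genes passed. A gene was called when its adjusted p, from limma's moderated test with Benjamini-Hochberg adjustment over all genes tested, was at most 0.025 and its fold difference at least 2. By this rule 2 of the 10 members were called, both higher in shEphexin1, against 303 of all genes (1.89%), of which 143 were higher (0.893%) and 160 lower (0.999%). At an adjusted p of at most 0.05 with any fold, 3 members differed, JAG2 and NOTCH1 upward and HEY1 downward, against 1123 of all genes (7.01%). The shControl and shEphexin1 libraries did not overlap for 6 members, against 4526 of all genes (28.3%). The members were chosen with earlier results of these data known, so these counts are not independent evidence about the pathway. NOTCH1, NOTCH2, JAG2, DLL1 and HES1 were higher in every shEphexin1 library, and HEY1 was lower in every one. The median log2 fold change of the members was 0.34, with a range of -0.74 to 2.56, beside -0.0093 for all genes tested. In cultures measured in bulk, a change in RNA per cell cannot be told apart from a change in the share of cells that express a gene.

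**Figure D1:**
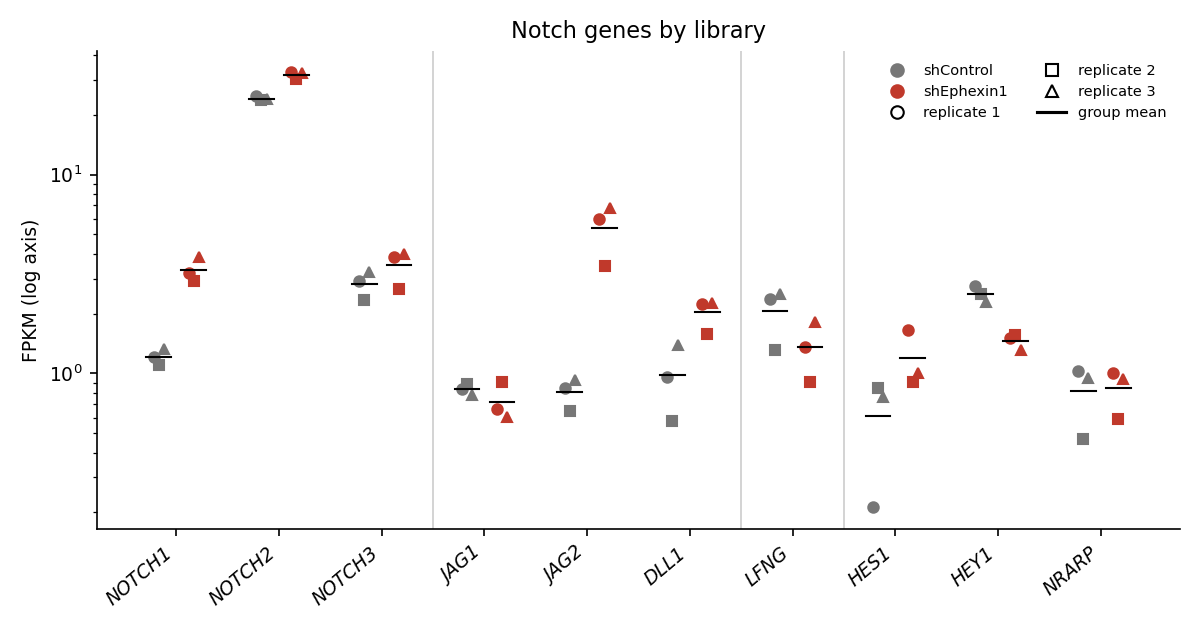
FPKM (log axis) of the 10 Notch genes in each of the 6 libraries, with circles for replicate 1, squares for replicate 2, triangles for replicate 3 and black lines at the group means. JAG2 (0.645 to 0.923 FPKM in shControl, 3.45 to 6.80 FPKM in shEphexin1) and NOTCH1 (1.10 to 1.33 and 2.91 to 3.86 FPKM) show the widest gaps between the groups, and replicate 2 is the lowest library of its group for NOTCH1, NOTCH2, NOTCH3, JAG2, DLL1, LFNG and NRARP.

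NOTCH1 encodes the receptor best known as an oncogene in T-cell leukaemia and as a tumour suppressor in squamous epithelium. The gene lies at chr9:139388885-139440500 on the minus strand of GRCh37. Its level was 1.21, 1.10 and 1.33 FPKM with the control shRNA, in the order of replicates 1, 2 and 3, and 3.21, 2.91 and 3.86 FPKM with the Ephexin1 shRNA. Every shEphexin1 library was above all shControl libraries, and replicate 2 was the lowest of each group. The mean went from 1.21 ± 0.116 to 3.32 ± 0.485 FPKM (SD, n = 3 each), a ratio of 2.74. On the log2(FPKM + 0.1) scale, which understates the fold of low genes, the difference was 1.37 (SE 0.176, 95% interval 0.96 to 1.79) with an adjusted p of 0.00765. The two-sided exact permutation test gave p = 0.1, the smallest value that 3 libraries against 3 allow.

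The NOTCH1 call was lost when 1 of 4 particular libraries was left out. Without replicate 1 or replicate 3 of shControl the adjusted p was 0.0527 or 0.0285, and without replicate 1 or replicate 3 of shEphexin1 it was 0.0494 or 0.0371, while the log2 fold change stayed between 1.27 and 1.44 in these fits. With a pseudocount of 1 FPKM the log2 fold change was 0.96, below the fold threshold. Genes near NOTCH1 were mostly higher as well. Within 250 kb of it, 13 of the 15 other genes tested had a positive log2 fold change, with a median of 0.35, a range of -0.17 to 1.40 and none called, beside 48.9% of positive values among all genes. With the libraries corrected for GC content and transcript length the count was 12 and the median 0.31. The median over the whole arm, 9q, was -0.071, and the part of the neighbourhood in the NOTCH1 value was not tested.

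NOTCH2 was the most abundant member by level per length in both groups. The gene lies at chr1:120454176-120643366 on the minus strand. The receptor is broadly expressed and is known for its part in B-cell, kidney and bile duct development. It was at 24.8, 23.6 and 23.9 FPKM in shControl, against 32.6, 30.4 and 32.5 FPKM in shEphexin1. There was no overlap, and the libraries of each group lay close together. The means were 24.1 ± 0.594 and 31.8 ± 1.25 FPKM (SD, n = 3 each), and the log2 fold change of 0.40 (SE 0.0961, 95% interval 0.18 to 0.62) had an adjusted p of 0.0518. NOTCH2 therefore did not pass either threshold. With a term for replicate 2 of both groups in the model the adjusted p was 0.00221, and without shEphexin1 replicate 1 it was 0.224. The value of NOTCH2 is uncertain because NOTCH2NL, a partial copy of the gene, can share reads with it. NOTCH2NL was at 16.2, 21.9 and 17.1 FPKM in shControl, while shEphexin1 had 24.6, 29.7 and 23.3 FPKM, and its log2 fold change was 0.49 (adjusted p 0.109).

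NOTCH3, at chr19:15269849-15311806 on the minus strand, encodes the receptor prominent in vascular smooth muscle. Its level was 2.91, 2.33 and 3.23 FPKM with the control shRNA and 3.84, 2.67 and 3.97 FPKM with the Ephexin1 shRNA. The groups overlapped, since shEphexin1 replicate 2 lay within the shControl range. For NOTCH3 the log2 fold change was 0.29 (SE 0.209, 95% interval -0.20 to 0.78) with an adjusted p of 0.467. NOTCH4, the remaining receptor, was at 0.230 ± 0.0658 FPKM in shControl, against 0.245 ± 0.104 FPKM in shEphexin1 (SD, n = 3 each).

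Summed over NOTCH1, NOTCH2 and NOTCH3, receptor mRNA was 28.9, 27.0 and 28.5 FPKM in shControl, against 39.6, 36.0 and 40.3 FPKM in shEphexin1. NOTCH2 made up 84.0% to 87.3% of this sum in shControl and 80.6% to 84.5% in shEphexin1. The share of NOTCH1 was 4.31% ± 0.318 in shControl and 8.58% ± 0.851 in shEphexin1 (SD, n = 3 each), without overlap between the groups. NOTCH3 took 8.61% to 11.4% in shControl and 7.42% to 9.83% in shEphexin1, which overlap.

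JAG2 had the largest log2 fold change of the members. It encodes a Jagged ligand that is known for its role in limb, palate and thymus development. The gene lies at chr14:105607319-105635161 on the minus strand of GRCh37, near the end of the long arm. Its level was 0.846, 0.645 and 0.923 FPKM in the shControl libraries and 5.95, 3.45 and 6.80 FPKM in those of shEphexin1. No library of either group reached the range of the other, and replicate 2 was the lowest library of each. The mean went from 0.805 ± 0.143 to 5.40 ± 1.74 FPKM (SD, n = 3 each), a ratio of 6.71. The fitted difference was a log2 fold change of 2.56 (SE 0.277, 95% interval 1.91 to 3.21), with an adjusted p of 0.00400 and an exact permutation p of 0.1.

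JAG2 was called under 17 of the 19 alternative settings, with log2 fold changes of 1.79 to 2.85 over all of them. The call was lost without shControl replicate 1 (log2 fold change 2.60, adjusted p 0.0329) and without shEphexin1 replicate 1 (2.46 and 0.0313). Replicates 1 and 3 alone gave 2.72. Of the 10 other genes tested within 250 kb of JAG2, 9 had positive values and 0 were called, with a median log2 fold change of 0.26 and a range of -0.098 to 0.86. After the correction for GC content and length, 9 were still positive and the median was 0.14, beside 51.8% of positive values among all genes. JAG2 lay above the range of these neighbours, and their part in its value was not tested.

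DLL1, at chr6:170591294-170615653 on the minus strand, encodes a Delta-like ligand known for its role in somite formation and neurogenesis, and it was higher in shEphexin1 without passing the test. Its level was 0.964, 0.576 and 1.40 FPKM with the control shRNA and 2.24, 1.59 and 2.25 FPKM with the Ephexin1 shRNA. The groups did not overlap, and replicate 2 was the lowest of each. The means were 0.979 ± 0.411 and 2.03 ± 0.381 FPKM (SD, n = 3 each), with a ratio of 2.07, and the log2 fold change was 1.04 (SE 0.314, 95% interval 0.30 to 1.77) with an adjusted p of 0.0985. When replicate 2 of both groups had a term of its own, the same log2 fold change had an SE of 0.197 and an adjusted p of 0.00724, which made DLL1 a called gene. After the correction for GC content and length the log2 fold change was 0.98 with an adjusted p of 0.00625, just under the fold threshold. DLL1 was called under 2 of the 19 alternatives. It was not called with any single library left out (adjusted p 0.0790 to 0.285), and with a pseudocount of 1 FPKM the log2 fold change was 0.63. DLL1 overlaps FAM120B on the opposite strand, and whether the counting used the strand is not given in the sources used here. FAM120B was at 8.06 to 10.3 FPKM with a log2 fold change of 0.13.

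JAG1, at chr20:10618332-10654647 on the minus strand, encodes the Jagged ligand that is mutated in Alagille syndrome. It was at 0.837, 0.884 and 0.784 FPKM in shControl, against 0.661, 0.904 and 0.602 FPKM in shEphexin1. The groups overlapped through shEphexin1 replicate 2, the highest of all 6 libraries. Its log2 fold change was -0.20 (SE 0.220, 95% interval -0.71 to 0.31) with an adjusted p of 0.647. The median of its arm, 20p, was -0.29, and after arm medians were subtracted the value of JAG1 was 0.050.

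The 3 ligands summed to 2.65, 2.11 and 3.10 FPKM in the shControl libraries and 8.85, 5.94 and 9.65 FPKM in those of shEphexin1. In shControl the ligands had similar shares of this sum, with JAG1 at 32.9% ± 8.45, JAG2 at 30.8% ± 1.12 and DLL1 at 36.3% ± 8.84 (SD, n = 3 each). In shEphexin1 JAG2 held 58.1% to 70.4%, DLL1 23.3% to 26.7% and JAG1 6.24% to 15.2%. None of the 3 shares overlapped between the groups. The highest share of DLL1 in shEphexin1 (26.7%) lay close to the lowest in shControl (27.4%). Shares of a sum depend on each other, so a rise of JAG2 lowers those of JAG1 and DLL1. By level, DLL1 was higher in shEphexin1 and JAG1 overlapped. The sum leaves out other ligands, among them DLL3 (means of 5.16 FPKM in shControl and 5.86 FPKM in shEphexin1) and CNTN1 (7.34 and 4.52 FPKM).

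**Figure D2:**
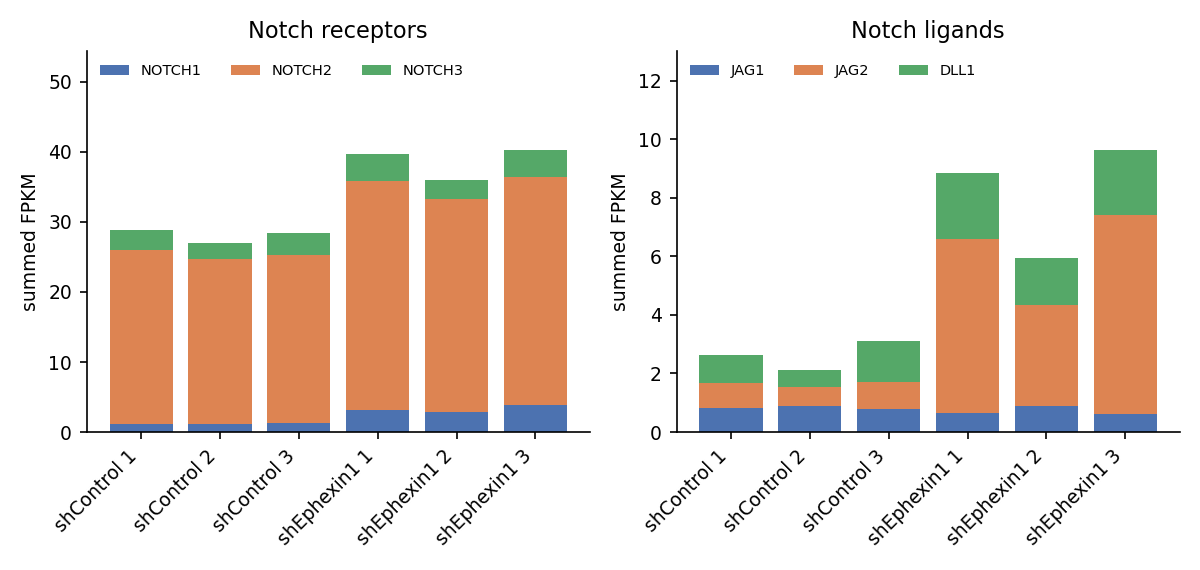
Stacked bars of FPKM in each library for the receptors NOTCH1, NOTCH2 and NOTCH3 (left) and the ligands JAG1, JAG2 and DLL1 (right). NOTCH2 fills most of every receptor bar, and JAG2 goes from 0.645 to 0.923 FPKM in the shControl bars to 3.45 to 6.80 FPKM in the shEphexin1 bars.

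LFNG, at chr7:2552163-2568811 on the plus strand, encodes Lunatic fringe, a glycosyltransferase that extends O-fucose on the receptors and thereby biases them towards Delta-like ligands. It was at 2.37, 1.31 and 2.52 FPKM with the control shRNA and at 1.36, 0.910 and 1.82 FPKM with the Ephexin1 shRNA. The lowest shControl library, replicate 2, lay within the shEphexin1 range, so the groups overlapped. The log2 fold change was -0.56 (SE 0.325, 95% interval -1.32 to 0.20) with an adjusted p of 0.361. With a term for replicate 2 the adjusted p was 0.0394, and after subtraction of arm medians, where that of 7p was -0.25, the log2 fold change was -0.35.

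Among the targets, HEY1 was lower, HES1 higher without passing the test, and NRARP close to its control level. HEY1, a basic helix-loop-helix repressor induced by Notch in vessels and heart, was at 2.77, 2.52 and 2.28 FPKM in shControl, against 1.51, 1.56 and 1.32 FPKM in shEphexin1. Every shEphexin1 library was under every shControl library, and replicate 2 did not stand apart. The mean went from 2.52 ± 0.245 to 1.46 ± 0.128 FPKM (SD, n = 3 each), a ratio of 0.581. The log2 fold change was -0.74 (SE 0.165, 95% interval -1.13 to -0.36) with an adjusted p of 0.0408, past the threshold of 0.05 but under a fold of 2. Without any single library other than shEphexin1 replicate 2 the adjusted p was between 0.0876 and 0.187. With a term for replicate 2 it was 0.00943, and with the correction for GC content and length 0.00625. The median log2 fold change of the arm 8q was -0.24, and MRPS28, the only other tested gene within 250 kb of HEY1, was at -0.69. After subtraction of arm medians HEY1 was at -0.54 with an adjusted p of 0.120.

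HES1 lies at chr3:193853937-193856521 on the plus strand. This gene, which encodes a repressor that oscillates in progenitor cells and holds back neuroendocrine differentiation, was at 0.212, 0.849 and 0.765 FPKM in shControl, while shEphexin1 had 1.66, 0.910 and 1.01 FPKM. The groups did not overlap, but shControl replicate 1 was far below the other shControl libraries and shEphexin1 replicate 1 above the others of its group. The means were 0.609 ± 0.346 and 1.19 ± 0.407 FPKM (SD, n = 3 each), and the log2 fold change was 0.98 (SE 0.457, 95% interval -0.09 to 2.05) with an adjusted p of 0.252. Without shControl replicate 1 the log2 fold change was 0.47. LRRC15, the only other tested gene within 250 kb of HES1, was called at a log2 fold change of 2.73 with an adjusted p of 0.00191, from 0.0558 to 0.107 FPKM in shControl to 1.11 to 1.13 FPKM in shEphexin1. It was named after its value was seen. LRRC15 passed the filter only through the shEphexin1 libraries, where it was high, so its call is no support for a difference. Its shControl values lay around the pseudocount of 0.1 FPKM, on which the fold depends.

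NRARP, at chr9:140194083-140196723 on the minus strand, encodes a small ankyrin-repeat protein that binds the Notch intracellular domain and promotes its loss, and its mRNA is often used as a readout of the pathway. It was at 1.03, 0.468 and 0.953 FPKM with the control shRNA and at 1.01, 0.592 and 0.940 FPKM with the Ephexin1 shRNA. Replicate 2 was the lowest library in both groups, and the other libraries of the groups overlapped. The log2 fold change was 0.08 (SE 0.334, 95% interval -0.70 to 0.86) with an adjusted p of 0.923, an interval that stays within a fold of 2 in either direction.

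**Figure D3:**
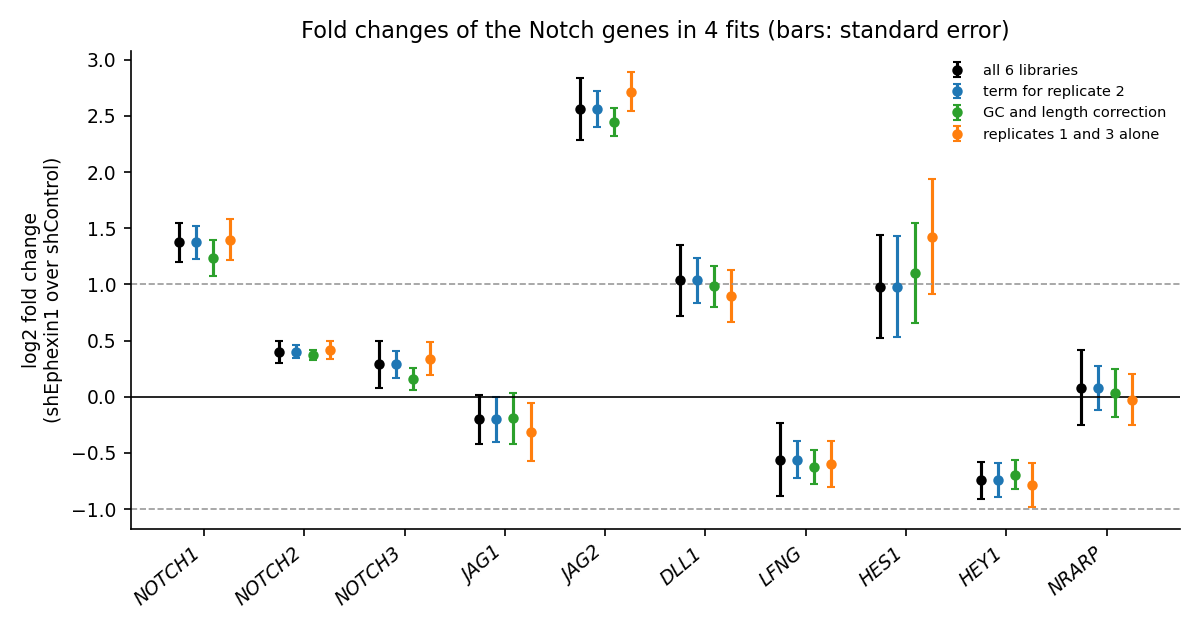
Log2 fold change (shEphexin1 over shControl) of each Notch gene with its standard error in 4 fits, using all 6 libraries, a term for replicate 2, a correction for GC content and transcript length, or replicates 1 and 3 alone. Dashed lines mark a fold of 2. JAG2 (2.45 to 2.72) and NOTCH1 (1.23 to 1.40) lie above the upper line in all 4 fits, while DLL1 (0.89 to 1.04) and HES1 (0.98 to 1.43) lie around it.

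By level, the order in shControl was NOTCH2, NOTCH3, HEY1, LFNG, NOTCH1, DLL1, JAG1, NRARP, JAG2 and HES1. Of the neighbours in this order, the libraries of NOTCH2 and NOTCH3 alone did not overlap. In shEphexin1 the order was NOTCH2, JAG2, NOTCH3, NOTCH1, DLL1, HEY1, LFNG, HES1, NRARP and JAG1. There the libraries of NOTCH2 and JAG2, of NOTCH1 and DLL1, and of DLL1 and HEY1 did not overlap, and those of the other neighbours did. JAG2 thus stood at rank 9 of the 10 genes in shControl and at rank 2 in shEphexin1.

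Replicate 2 moved with the GC content of the members. NOTCH1, NOTCH3, JAG2, LFNG, DLL1 and NRARP have transcripts with 59.2% to 64.1% GC, and in each of them replicate 2 was lower than the mean of replicates 1 and 3 in both groups. The difference on the log2 scale was -0.40 in shControl and -0.86 in shEphexin1 for JAG2. It was -0.90 and -0.48 for DLL1, and -0.94 and -0.63 for NRARP. HEY1, NOTCH2, JAG1 and HES1 have less GC, with 49.4% in NOTCH2. Among these, replicate 2 was higher in both groups for JAG1 (0.11 and 0.46) and HEY1 (0.0051 and 0.14), lower in both for NOTCH2 (-0.044 and -0.099), and higher in shControl but lower in shEphexin1 for HES1 (0.87 and -0.47). With replicate 2 left out of both groups, JAG2 and NOTCH1 were still called, at 2.72 and 1.40.

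**Figure D4:**
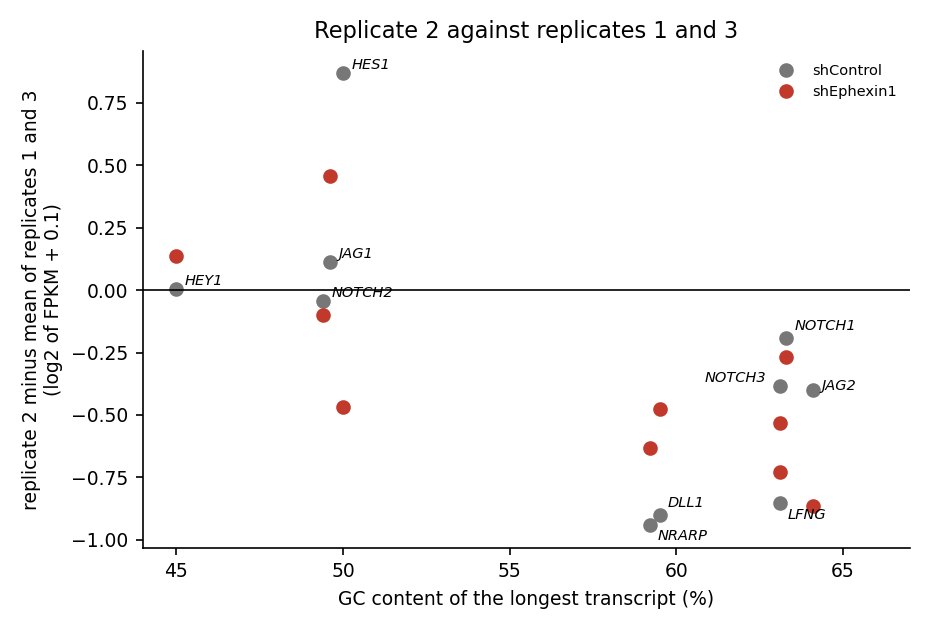
Difference of replicate 2 from the mean of replicates 1 and 3 (log2 of FPKM + 0.1) against the GC content of the longest transcript for the 10 Notch genes, in shControl (grey, labelled) and shEphexin1 (red, at the same GC content). All 6 genes with 59.2% to 64.1% GC lie below 0 in both groups.

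The other genes of the pathway were described with a list of 67 genes by role, of which 57 were tested. Of these, 0 were called higher and 1, TLE1, was called lower, near the 1.89% called among all genes. At an adjusted p of at most 0.05 with any fold, MFNG, HES4 and ADAM17 were higher and TLE1 lower, 4 of 57 beside 7.01% of all genes. The groups did not overlap for 15 of the 57, beside 28.3% of all genes. These counts are close to the rates among all genes. The median log2 fold change was 0.060, with 34 positive and 23 negative values from -1.47 to 1.52. The 10 listed genes under the filter were DLK1, DNER, TLE4, DTX1, DTX4, HES2, HES5, HEY2, INSM1 and CHGA.

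TLE1, a Groucho-family corepressor that works with HES proteins, fell. It was at 11.4, 11.9 and 12.7 FPKM in shControl, against 4.21, 3.56 and 5.13 FPKM in shEphexin1, with no overlap. The mean went from 11.99 ± 0.617 to 4.30 ± 0.788 FPKM (SD, n = 3 each), and the log2 fold change was -1.47 (SE 0.158) with an adjusted p of 0.00393. The call was lost without shControl replicate 1 (adjusted p 0.0358) and without shEphexin1 replicate 1 (0.0319). Of the 10 corepressor genes tested, 5 had positive and 5 negative values, and TLE1 alone passed a threshold. CTBP1, a corepressor that binds short peptide motifs, was at 78.1 ± 16.4 and 55.6 ± 12.9 FPKM, and HDAC1, a histone deacetylase, at 68.5 ± 5.26 and 55.8 ± 3.67 FPKM (SD, n = 3 each).

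HES4, another member of the HES family, was higher in shEphexin1, whereas the other tested HES and HEY factors HES6, HES7 and HEYL did not pass either threshold. HES4 was at 1.65, 1.54 and 1.42 FPKM in shControl, while shEphexin1 had 6.83, 2.66 and 5.24 FPKM. The groups did not overlap, and shEphexin1 replicate 2 was far below the others of its group. The log2 fold change was 1.52 (SE 0.324) with an adjusted p of 0.0368, and without shEphexin1 replicate 2 it was 1.90 with an adjusted p of 0.00541. Leaving out any other single library gave an adjusted p of 0.0792 to 0.135. HES4 was called under 6 of the 19 alternatives, among them a term for replicate 2 (adjusted p 0.00370) and the correction for GC content and length (0.00625). HES7, the oscillator of the segmentation clock, was at 10.6 ± 2.27 and 8.75 ± 1.09 FPKM (SD, n = 3 each).

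MFNG, Manic fringe, is the paralog of LFNG and acts on the same O-fucose. It was at 0.292, 0.384 and 0.374 FPKM with the control shRNA and at 1.12, 0.732 and 0.931 FPKM with the Ephexin1 shRNA, with no overlap. The log2 fold change was 1.18 (SE 0.242) with an adjusted p of 0.0340, and without shEphexin1 replicate 1 the adjusted p was 0.148. MFNG was called under 6 of its 18 alternatives, among them a term for replicate 2 (adjusted p 0.0107) and the correction for GC content and length (0.0106). With a pseudocount of 1 FPKM the log2 fold change was 0.51. POFUT1, the enzyme that adds the O-fucose, was at 35.3 ± 4.83 and 35.1 ± 2.51 FPKM, and EOGT, which adds O-GlcNAc to the receptors, at 11.009 ± 0.752 and 11.5 ± 1.65 FPKM (SD, n = 3 each).

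ADAM17, the sheddase also known as TACE, was at 20.9, 21.4 and 21.3 FPKM in shControl, against 29.5, 30.6 and 26.8 FPKM in shEphexin1. Its log2 fold change was 0.45 (SE 0.102) with an adjusted p of 0.0435, and leaving out any single library gave 0.0618 to 0.200. Of the 9 cleavage genes tested, 8 had positive values, beside 48.9% of all genes tested, and ADAM17 alone passed a threshold. ADAM10, the other protease, was at 31.6 ± 4.02 and 35.5 ± 4.93 FPKM (SD, n = 3 each). Its log2 fold change was 0.17 (adjusted p 0.559). PSENEN, a gamma-secretase subunit, was at 197 ± 21.9 and 226 ± 15.5 FPKM, and APH1A, another subunit, at 63.1 ± 13.3 and 58.2 ± 9.53 FPKM (SD, n = 3 each).

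Among ligand-side genes, MIB1, the ubiquitin ligase that drives ligand endocytosis, was at 29.0, 32.7 and 25.6 FPKM in shControl, while shEphexin1 had 18.1, 22.4 and 16.0 FPKM. No overlap was seen, and the log2 fold change of -0.63 (SE 0.159) had an adjusted p of 0.0585. Its arm, 18q, had a median of -0.44, and after subtraction of arm medians MIB1 was at -0.23. NEURL1B, a ubiquitin ligase of the Neuralized family, was at 6.80 ± 0.728 and 6.91 ± 1.01 FPKM (SD, n = 3 each). CNTN1, a contactin described as an alternative ligand, was at 7.34 ± 1.32 and 4.52 ± 0.593 FPKM (SD, n = 3 each), and its log2 fold change was -0.68 (adjusted p 0.0598). DLL3, a ligand that inhibits Notch within the same cell, was at 5.16 ± 1.45 and 5.86 ± 2.41 FPKM (SD, n = 3 each).

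RBPJ was at 45.2 ± 6.96 FPKM in shControl, against 32.8 ± 6.56 FPKM in shEphexin1 (SD, n = 3 each), with overlapping groups, a log2 fold change of -0.47 (SE 0.175) and an adjusted p of 0.162. With a term for replicate 2 its adjusted p was 0.00317, with the correction for GC content and length it was 0.000506, and in replicates 1 and 3 alone 0.0199, each under a fold of 2. Under quantile normalization the adjusted p of RBPJ was 0.316, and with single libraries left out it was 0.0528 to 0.383. After subtraction of arm medians, where that of 4p was -0.20, the log2 fold change was -0.31 with an adjusted p of 0.384. SNW1, a coactivator of RBPJ also known as SKIP, was at 50.7 ± 2.64 and 50.1 ± 3.12 FPKM (SD, n = 3 each). In the fit of all 6 libraries without a term or correction, none of the 8 nuclear activators tested passed either threshold. Neither did any of the 7 genes of turnover and inhibition. Of the latter, the ubiquitin ligase ITCH was at 34.5 ± 4.63 and 29.1 ± 5.49 FPKM and its relative NEDD4 at 29.0 ± 3.63 and 27.9 ± 5.24 FPKM (SD, n = 3 each). The targets MYC (39.8 ± 5.07 and 35.8 ± 4.04 FPKM) and CCND1 (197 ± 14.1 and 171 ± 13.4 FPKM) overlapped between the groups. The neuroendocrine genes SYP (0.813 ± 0.143 and 0.894 ± 0.0835 FPKM) and NEUROD1 (0.169 ± 0.0838 and 0.0882 ± 0.0368 FPKM) were low in both, and INSM1 was listed at 0 in all 6 libraries.

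**Figure D5:**
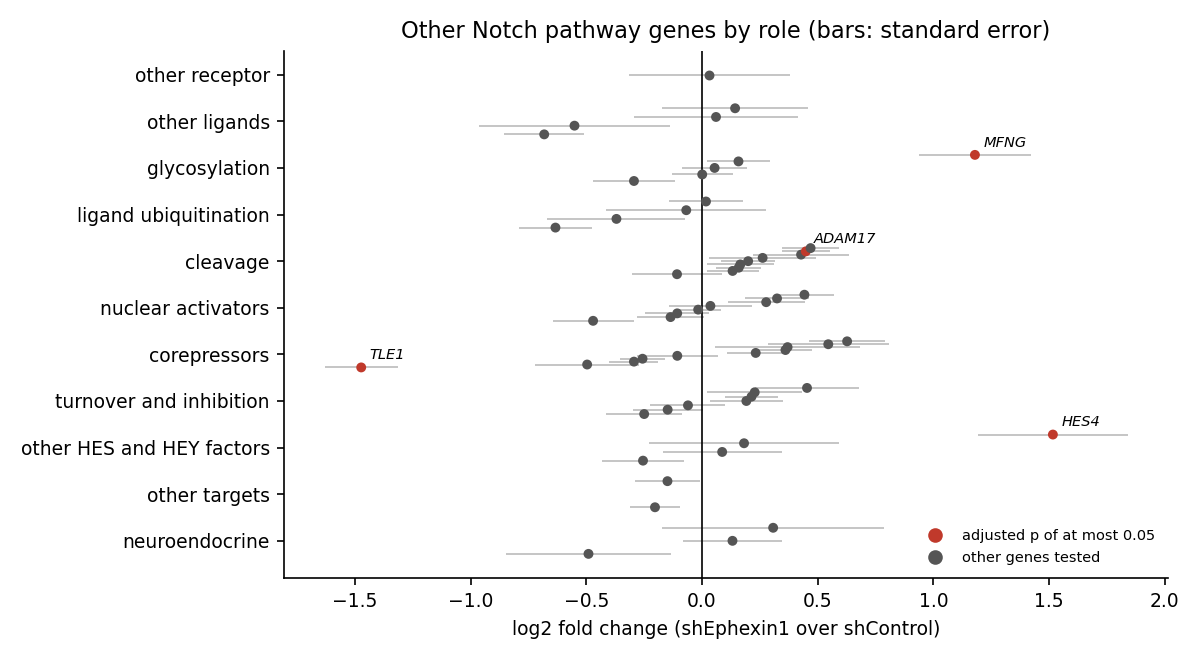
Log2 fold change (shEphexin1 over shControl) with its standard error for the 57 other pathway genes tested, grouped by role. TLE1 (-1.47), HES4 (1.52), MFNG (1.18) and ADAM17 (0.45) had an adjusted p of at most 0.05 (red), and the remaining genes spread on both sides of 0.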

How the data were processed

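RNA was measured in 6 libraries of H1299 cells, grouped by their titles into 3 shControl and 3 shEphexin1. Per the study's methods and processing notes, the authors prepared stranded total RNA libraries, mapped reads to GRCh37/hg19 with TopHat2 2.0.13 and calculated the deposited FPKM with Cuffdiff (Cufflinks 2.2.1), using geometric normalization and pooled dispersion. The gene annotation is not given in the sources used here. FPKM hold no read counts, so depth and counting error are unknown.

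Values were transformed as log2(FPKM + 0.1). Genes that reached 0.1 FPKM in 3 or more libraries were compared with limma 3.58.1 (lmFit, eBayes with trend) in R 4.3.3, and p-values were adjusted by Benjamini-Hochberg over 16020 genes. The call needed an adjusted p of 0.025 or less and a fold of 2 or more. Single members were also compared by two-sided exact permutation tests. Positions, GC content and length came from GENCODE 44 on GRCh37, where 22422 of 26253 distinct names matched directly and 1337 through an older symbol. Promoters came from RefSeq on GRCh38.p14. Python 3.11.15, pandas 2.3.3 and matplotlib 3.10.9 were used.

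The members, pathway list and tests were chosen with earlier results of these data known. Named genes were all members, pathway genes whose adjusted p was 0.05 or less, and in each role the 2 with the highest mean FPKM, with LRRC15, MRPS28, NOTCH2NL and FAM120B added as neighbours, copy or overlapping gene. ADAM10 was added as the other protease beside ADAM17. Alternatives were other pseudocounts, filters, scalings and variance models, a replicate block, a correction for GC content and length (loess per library), a term for replicate 2, replicates 1 and 3 alone, subtraction of arm medians, and each library left out.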

Additional observations from a re-analysis of the deposited data

How the results depend on the processing

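All 19 alternatives were run. The 2 called members became 3 with a term for replicate 2, 1 with a pseudocount of 1 FPKM and 0 to 2 with single libraries left out (0 without shControl replicate 1 and without shEphexin1 replicate 1). The 3 members at an adjusted p of at most 0.05 became 6 with a term for replicate 2, with the GC and length correction, and with that correction and a replicate block, 5 in replicates 1 and 3 alone, 4 with median centring or quantile normalization, 2 after subtraction of arm medians, and 1 to 4 with single libraries left out. In the pathway list, the 1 called gene became 2 without the variance trend, 3 with the term, with the correction, with both correction and block, and in replicates 1 and 3 alone, and 0 to 2 with single libraries left out. Its 4 genes at 0.05 became 2 without the trend, 20 with the term, 20 with the correction, 28 with correction and block, 13 in replicates 1 and 3 alone, 1 after subtraction of arm medians, and 1 to 6 with single libraries left out. NRARP turned to -0.070 under quantile normalization, -0.025 in replicates 1 and 3 alone and -0.24 to 0.29 with single libraries left out, and JAG1 to 0.050 after subtraction of arm medians. The causes were not tested, and some of the fits also had fewer libraries. The shares among all genes were not counted under the alternatives. A rise in these counts therefore cannot be told apart from a rise over the whole set of genes tested. A filter of 1 FPKM left out HES1, JAG1 and NRARP.

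With a replicate block, 3 members were called, 6 members and 26 pathway genes were at an adjusted p of at most 0.05, 3 pathway genes were called, and DLL1 was called at 1.04 (adjusted p 0.00934). The shares among all genes were not counted in this fit either. Deviations of same-numbered libraries correlated at 0.091, 0.43 and 0.328 for replicates 1, 2 and 3, and the labels give no shared source, so the numbers were not taken as pairs. Each library correlated best with its own number, a hint from the data only. For shEphexin1 replicate 1 this was nearly a tie, with 0.091 for shControl replicate 1 and 0.089 for shControl replicate 3. The deviations were taken from the group mean, so these correlations depend on each other.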
